A study of Homo sapiens with 24 samples.

Results

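The replication-dependent histone genes encode the linker histone H1 and the core histones H2A, H2B, H3 and H4, which package newly made DNA. They were taken as the protein-coding genes of GENCODE v44 whose symbols begin with H2AC, H2BC, H3C or H4C followed by a number, or run from H1-1 to H1-5. The annotation holds 69 such genes, of which 65 had a row among the 60675 identifiers of the count table (5 H1, 15 H2A, 19 H2B, 11 H3 and 15 H4 genes). H2AC18, H2AC19, H3C2 and H3C3 were not analysed here. Most lie in the large cluster on 6p22 (52 genes), with 9 on 1q21, 2 on 1q42, 1 on chromosome 12 and 1 on chromosome 21.

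The study sequenced total RNA of MIA PaCa-2 cells, an established human line of pancreatic ductal adenocarcinoma, in 24 libraries that form 8 groups of 3. Both lines carry a tet-on vector, which holds the CEBPD cDNA in the CEBPD line (a pool of 3 inducible clones with the green fluorophore mVenus) and no cDNA in the CTRL line (with the red fluorophore mCherry). Each line was sampled at 0, 8, 24 and 48 h of doxycycline, the 0 h samples being labelled with the dose of 2 ug/ml like the others. Within a line, doxycycline and time in culture change together and cannot be told apart, and between the lines, transgene and clone cannot be told apart.

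In dividing cells these histone genes are transcribed in S phase at histone locus bodies, with the coactivator NPAT, and their mRNAs are degraded when DNA synthesis stops. Most have no introns, and their mRNAs end in a conserved stem-loop in place of a poly(A) tail. The stem-loop is bound by SLBP, which takes part in the processing, export and translation of these mRNAs. The libraries were made by depletion of ribosomal RNA, a preparation that does not select for poly(A) tails.

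A stem-loop was searched within 100 bases after the stop codon as GG, 4 bases of any kind, TT, any 2 bases, A, any 3 bases and CC, with at least 5 of its 6 stem pairs formed. It was found in 61 of the 65 genes and in 13 of 19179 other genes (0.068%), beginning 22 to 62 bases after the stop codon. H2BC10, H2BC12L, H3C6 and H4C13 had no match in that window. The sites below, in mRNA sense from GRCh38, are shown because they are what sets these mRNAs apart, and capitals mark the stem-loop.
H1-3 (chr6:26234212-26234237, minus strand): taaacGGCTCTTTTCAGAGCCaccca
H2AC20 (chr1:149887386-149887411, plus strand): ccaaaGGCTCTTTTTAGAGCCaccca
H2BC3 (chr6:26043227-26043252, minus strand): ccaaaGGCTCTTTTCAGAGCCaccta
H2BC8 (chr6:26216213-26216238, minus strand): tcaaaGGCTCTTTTCAGAGCCactca
H4C4 (chr6:26188710-26188735, minus strand): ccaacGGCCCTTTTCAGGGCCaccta
H4C9 (chr6:27139649-27139674, plus strand): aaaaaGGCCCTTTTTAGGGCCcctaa
The letters split by class. The H4 genes had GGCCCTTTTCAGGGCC (10 genes) or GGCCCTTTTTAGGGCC (4 genes), and among the other classes 36 genes had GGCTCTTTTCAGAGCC and 8 had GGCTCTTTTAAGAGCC.

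RefSeq promoter sequence (GRCh38.p14, the 250 bases before the start) was matched for 59 of the 65 genes and searched on both strands, taking the first RefSeq start that lay inside the annotated gene or at most 200 bases from it. The octamer ATTTGCAT, bound by OCT1, lay in 11 of 14 H2A and 14 of 18 H2B promoters and in 0 of the H1, H3 and H4 promoters matched, against 1.66% of 27305 promoters. CCAAT lay in every H1, H2A, H2B and H3 promoter matched and in 3 of 13 H4 promoters (33.04% of all promoters). TATAAA lay in 40 of the 59 (11.1% of all), and GGTCC in 12 of 13 H4 promoters (40.4% of all). TTGCNNAA, one form of the C/EBP site, lay in 18 of the 59 (9.13% of all), in 5 of them only where it overlaps the octamer. Where an H2A and an H2B gene are read in opposite directions from starts within 400 bases, their stretches overlap. The same site can then count for both genes, so the H2A and H2B counts are not counts of separate sites. This holds for each of these motifs and for the totals over the 59 promoters. A match is a run of letters and no measure of binding. The promoters below belong to the gene with the largest difference between the lines (H2BC8), the gene that fell furthest at 48 h (H2BC3), the H2B gene with the highest level per length (H2BC14) and an H4 gene (H4C4), and capitals mark ATTTGCAT, CCAAT and TATAAA on either strand.
H2BC8 (chr6:26216689-26216938, minus strand): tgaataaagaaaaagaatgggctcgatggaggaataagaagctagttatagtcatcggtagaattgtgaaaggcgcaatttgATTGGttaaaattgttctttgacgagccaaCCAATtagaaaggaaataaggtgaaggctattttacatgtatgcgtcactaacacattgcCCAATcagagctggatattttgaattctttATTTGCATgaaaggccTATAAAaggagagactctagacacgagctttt
H2BC3 (chr6:26043714-26043963, minus strand): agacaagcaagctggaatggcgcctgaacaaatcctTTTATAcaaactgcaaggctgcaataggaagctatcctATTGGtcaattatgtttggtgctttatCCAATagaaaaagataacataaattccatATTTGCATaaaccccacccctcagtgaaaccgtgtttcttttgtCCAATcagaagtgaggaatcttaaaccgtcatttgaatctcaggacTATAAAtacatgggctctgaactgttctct
H2BC14 (chr6:27814772-27815021, plus strand): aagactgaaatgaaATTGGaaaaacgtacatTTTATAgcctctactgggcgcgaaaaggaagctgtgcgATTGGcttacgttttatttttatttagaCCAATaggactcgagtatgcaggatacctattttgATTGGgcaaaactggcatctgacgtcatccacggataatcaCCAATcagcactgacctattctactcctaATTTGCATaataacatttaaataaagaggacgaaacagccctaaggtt
H4C4 (chr6:26189113-26189362, minus strand): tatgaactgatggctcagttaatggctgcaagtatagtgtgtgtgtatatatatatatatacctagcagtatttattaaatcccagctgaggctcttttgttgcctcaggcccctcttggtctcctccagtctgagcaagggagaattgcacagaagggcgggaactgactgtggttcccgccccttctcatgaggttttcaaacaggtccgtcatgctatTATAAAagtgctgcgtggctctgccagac
H2BC8 and H2AC8 start 233 bases apart and are read in opposite directions, so the stretch printed for H2BC8 spans the promoter of both.

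Libraries held 12731237 to 22598595 counts. CEBPD, the induced gene, stood at 4.20, 3.71 and 3.92 CPM (counts scaled by library size with TMM factors) in CTRL 0 h libraries and at 18.9, 23.4 and 22.3 CPM in CEBPD 0 h libraries, so the CEBPD line was higher at 0 h as well (log2 fold change 2.44 ± 0.11, adjusted p = 2.7e-13). It was at 267, 239 and 241 CPM at 8 h, 307 ± 12.6 at 24 h and 204 ± 7.15 at 48 h in the CEBPD line (SD, n = 3). Of 7 markers of the labelled cell type, 0 were higher and 5 lower in the CEBPD line at 0 h (adjusted p below 0.01 in edgeR's quasi-likelihood test), beside 20.1% and 24% of all genes. The counts were 1 and 3 at 8 h (14.4% and 17.5% of all genes), 2 and 4 at 24 h (21.7% and 25.3%) and 1 and 4 at 48 h (17.7% and 20.7%). Among these markers, KRT8 was at 1559.8 ± 54.1 CPM in CTRL 0 h and 74.3 ± 2.32 CPM in CEBPD 0 h libraries, and VIM was at 6934 ± 58.8 and 5839.5 ± 66.4 CPM. The 11 markers of other cell types summed to 136 to 690.0 CPM per library, nearly all of it COL1A2, which was higher in CTRL (646 ± 18.6 CPM at 0 h) than in CEBPD cells (244 ± 7.65 CPM), while PTPRC, CD3E, DCN, PRSS1, CPA1 and INS had at most 1 count in a library. The part of these markers in the histone values was not tested. Replicate 3 stood apart from replicate 1 at 8 h in both lines, with chi-square values per gene of 16.7 in CTRL and 12.3 in CEBPD cells, against 1.66 to 8.36 at the other times. Of the histone genes tested, CTRL 8 h replicate 3 was the highest of its group for 42 of 50, by a median of 0.20 on the log2 scale, and CEBPD 8 h replicate 1 was the highest for 46 of 49.

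The histone genes together took 0.610%, 0.639% and 0.641% of the counts in the CTRL 0 h libraries and 0.814%, 0.781% and 0.859% in the CEBPD 0 h libraries. At 8 h the shares were 0.532%, 0.511% and 0.605% in CTRL and 0.652%, 0.587% and 0.564% in CEBPD libraries. At 24 h they were 0.652%, 0.609% and 0.628% in CTRL and 0.835%, 0.911% and 0.790% in CEBPD libraries. All CEBPD libraries were above all CTRL libraries at 0 and 24 h, whereas at 8 h the groups overlapped. At 48 h the shares were 0.437%, 0.420% and 0.470% in CTRL and 0.677%, 0.608% and 0.635% in CEBPD libraries, again without overlap and below the 0 h shares of the same line. Fewer cells in S phase and less histone mRNA per cell cannot be told apart in these bulk samples. By class, the CTRL 0 h libraries held a mean of 1903 CPM of H1, 1108 of H2A, 1611 of H2B, 502 of H3 and 1426 of H4 mRNA.

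**Figure D1:**
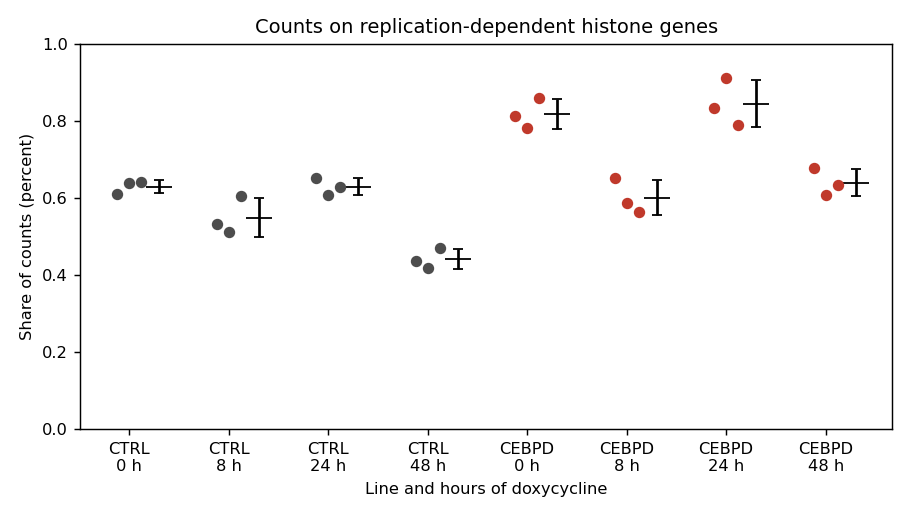
Share of counts on the 65 replication-dependent histone genes (y axis, percent) by line and hours of doxycycline (x axis). Points are libraries, bars are the mean with 1 SD, and the group means run from 0.442% in CTRL 48 h to 0.846% in CEBPD 24 h libraries.

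Levels differed widely among the genes. Per kb of annotated exon and averaged over all 24 libraries, the linker histone H1-5 was highest at 932 CPM per kb, with H1-2 at 727 and H1-4 at 548. Among the H4 genes, H4C2 was at 595 and H4C5 at 591 CPM per kb, with library ranges of 389.9 to 810.3 and 451 to 811 that overlapped, and H4C3 followed at 410.4. H2BC14 led the H2B genes at 451 CPM per kb, before H2BC7 at 286 and H2BC5 at 248. H2AC11 led the H2A genes at 331, before H2AC12 at 230.2 and H2AC13 at 225. H3C11 led the H3 genes at 326, before H3C12 at 110.1 and H3C10 at 90.2. Genes with a longer second annotated transcript have a smaller value on this scale.

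Of the 65 genes, 51 passed the filter on low counts in at least 1 comparison. The other 14 never held more than 15 counts in a library and were not tested: H1-1, H2AC1, H2AC17, H2BC1, H2BC9, H2BC10, H2BC12L, H3C4, H3C7, H3C8, H3C15, H4C6, H4C7 and H4C14. H2AC1, H3C4 and H4C7 had no count in any library, which allows up to 0.133 to 0.236 CPM per library by counting error alone. H3C15 and H4C14 are near copies of measured genes. H3C15 held 55 counts in all libraries together beside 6563 on H3C14, and H4C14 held 89 beside 15208 on H4C15. Values of H2AC13, H2AC14, H2BC12, H3C13, H3C14, H4C11, H4C12 and H4C15, which share over 50% of their 50-base stretches with another gene, are therefore uncertain. So are those of H2AC21, H2BC4, H2BC6, H2BC18 and H4C8, which overlap a gene on the other strand, since the strand setting of the counting is not given in the sources used here.

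**Figure D2:**
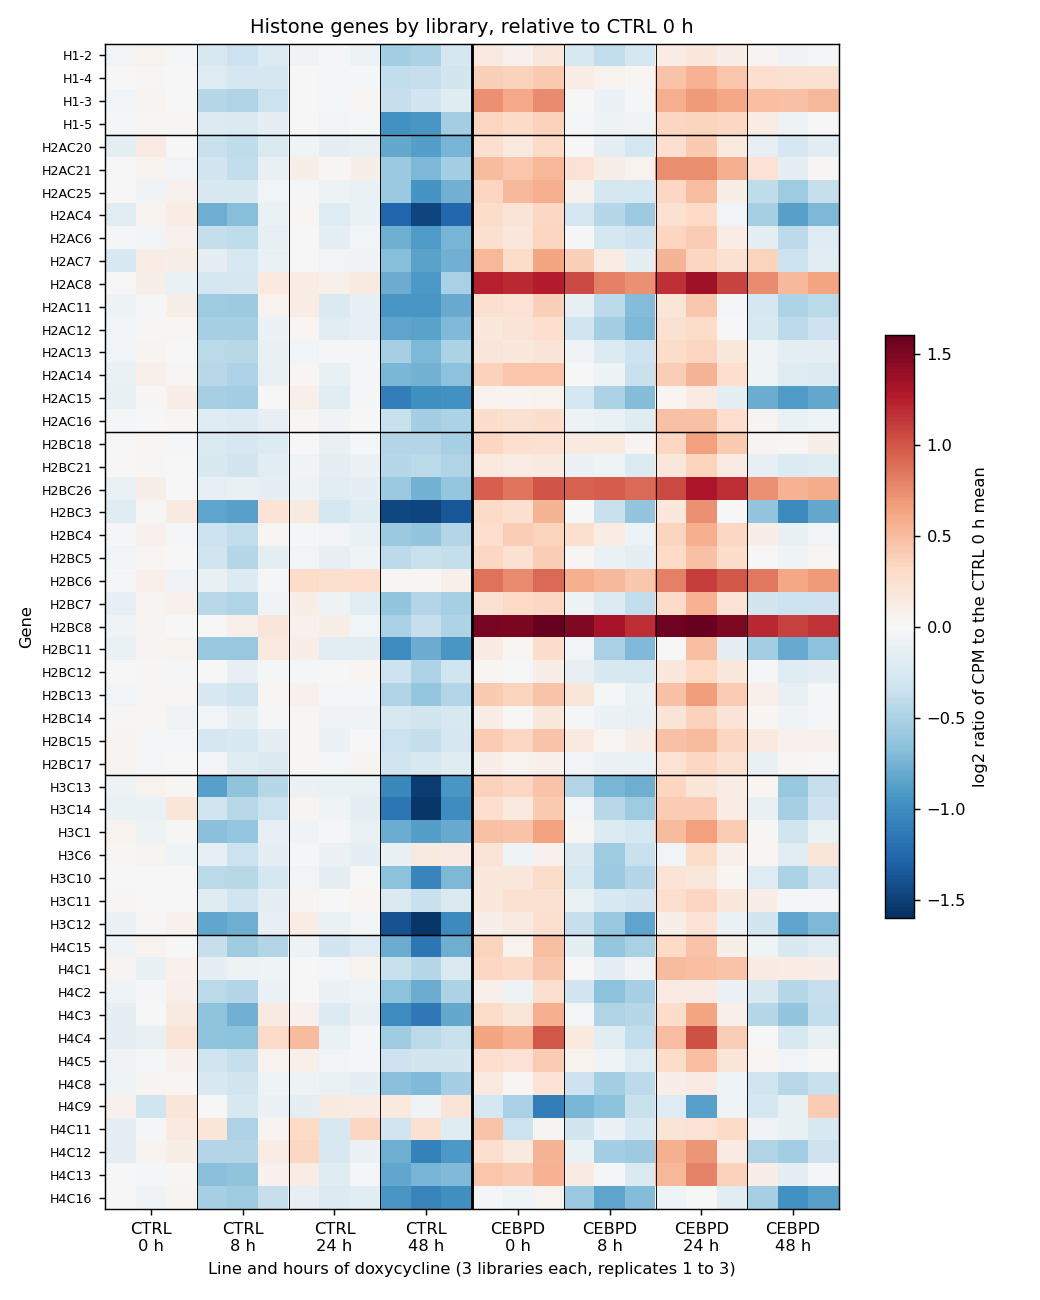
Heat map of the 51 tested histone genes (rows, by class and then chromosome order) in the 24 libraries (columns, by line and hours of doxycycline). Colour is the log2 ratio of CPM to the CTRL 0 h mean after adding 0.5 to both, and the CTRL 48 h columns are mostly blue (below 0) while the rows of H2AC8, H2BC8 and H2BC26 are red (above 0) in the CEBPD columns.

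At 0 h most histone genes were higher in the CEBPD line. Of 50 tested, 39 were called higher and 0 lower, where 20.1% of all genes were called higher and 24% lower. A gene was called at an adjusted p below 0.01 in edgeR's quasi-likelihood test. One model of all 24 libraries gave 23 calls in place of 39. The median log2 fold change was 0.29 for the histone genes and 0.01 for all genes tested. Genes of each class took part, with 4 of 4 H1, 12 of 13 H2A, 11 of 15 H2B, 5 of 7 H3 and 7 of 11 H4 genes called higher.

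The divergent pair H2BC8 and H2AC8 led. H2BC8, a core histone H2B gene, was at 37.6, 40.5 and 39.3 CPM in CTRL 0 h and at 113, 113 and 124 CPM in CEBPD 0 h libraries. The groups lay far apart, with a log2 fold change of 1.56 ± 0.05, adjusted p = 5.6e-16 (error as SE throughout). H2AC8, its H2A partner, was at 76.1, 81.6 and 70.8 CPM in CTRL and 181, 174 and 183 CPM in CEBPD libraries, without overlap (1.23 ± 0.04, adjusted p = 4.9e-15). H2BC26, an H2B gene on 1q42, was at 17.4, 19.98 and 18.8 CPM against 36.8, 34.4 and 38.1 CPM (0.95 ± 0.07). All 3 of its CEBPD libraries were above the highest CTRL library. H4C4, an H4 gene, was more scattered, at 112, 114 and 144 CPM against 191, 181 and 247 CPM (0.73 ± 0.09), and still without overlap. The linker histone H1-3 was at 178, 189 and 184 CPM against 305, 280.5 and 311 CPM (0.69 ± 0.04). The other genes with the largest calls of their classes, all higher in the CEBPD line, were H2BC6 (0.84), H2AC7 (0.54), H3C1 (0.51), H2AC21 (0.49), H4C13 (0.46), H1-4 (0.38), H3C13 (0.38), H4C3 (0.35), H1-5 (0.33) and H3C11 (0.21).

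H2BC6, H4C4, H2AC7, H2BC8, H2AC8 and H1-3 lie in a stretch of 6p22, from position 26172059 to 26234987 of chromosome 6 (GRCh38). Within it H2BC7 (0.29), H4C5 (0.29) and H3C6 (0.06 ± 0.11, not called) had smaller values. The stretch was marked out after the values were seen, around genes named for large differences, and was not tested. Outside 6p22, H4C16 on chromosome 12 was at -0.02 ± 0.04 and was not called. H4C9, with 3 to 22 counts per library at 0 h, had the lowest value (-1.04 ± 0.39, adjusted p = 0.03) and was not called. The remaining genes that did not pass were H2AC15, H2BC11, H2BC12, H2BC14, H2BC17, H3C14, H4C2 and H4C8, with log2 fold changes between 0.04 and 0.27.

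**Figure D3:**
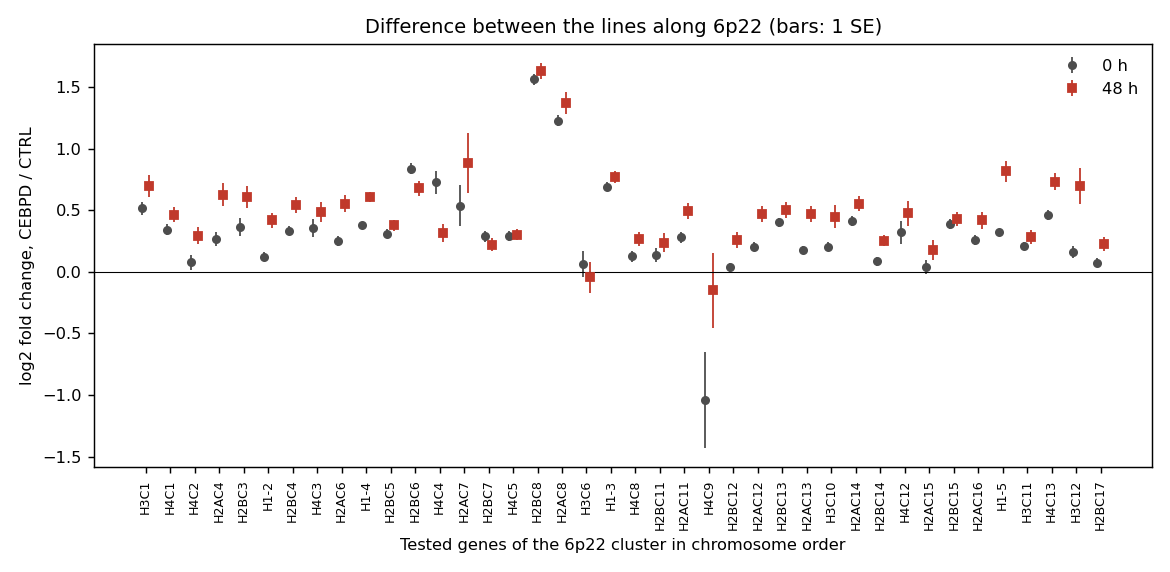
Log2 fold change of the CEBPD over the CTRL line (y axis) for the 40 tested genes of the 6p22 cluster in chromosome order (x axis), at 0 h (grey circles) and 48 h (red squares), with bars of 1 SE. H2BC8 and H2AC8 stand above the other genes at both times, and H4C9 is lowest at 0 h with the widest bars.

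At 8 h, 9 of 50 genes were called higher in the CEBPD line and 0 lower (14.4% and 17.5% of all genes), so the higher count was near the share of all genes. The 9 were H1-3, H1-4, H2AC8, H2AC21, H2BC6, H2BC8, H2BC15, H2BC18 and H2BC26, of which H2BC15 and H2BC18 are named after their values were seen. Without CTRL 8 h replicate 1 the counts were 10 higher and 2 lower. Without CTRL 8 h replicate 3 the count was 19, and without replicate 3 of both lines 24. At 24 h, 42 of 51 were called higher and 0 lower (21.7% and 25.3% of all genes), with a median of 0.39. At 48 h, 44 of 50 were called higher and 0 lower (17.7% and 20.7% of all genes), with a median of 0.48. The same 36 genes were called higher at 0, 24 and 48 h. The share of all genes called higher at all of these times was not counted. The overlap is thus not read as particular to the histone genes. Over the 50 genes tested at both 0 and 48 h, comparisons that share no library, the log2 fold changes had a Pearson r of 0.81 and a Spearman rho of 0.72, given as a description since the genes share libraries.

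H2BC8 had the largest difference at each time, 1.25 ± 0.08 at 8 h, 1.56 ± 0.05 at 24 h and 1.63 ± 0.06 at 48 h. H2BC26 was next at 8 h (1.09 ± 0.07) and 24 h (1.35 ± 0.06), and H2AC8 at 48 h (1.37 ± 0.09). H2BC8 stood at 27.2, 30.1 and 27.7 CPM in CTRL 48 h and 90.9, 84.5 and 88.03 CPM in CEBPD 48 h libraries, so the groups stayed far apart. Among the linker histones at 48 h, H1-5 was at 384, 395 and 509 CPM in CTRL and 817, 708 and 744 CPM in CEBPD libraries (0.82 ± 0.09, adjusted p = 3.9e-06), with H1-3 at 0.77 and H1-4 at 0.61. The H3 genes H3C14 (0.92 ± 0.15), H3C13 (0.85 ± 0.17) and H3C1 (0.70 ± 0.09) and the H4 genes H4C15 (0.74), H4C13 (0.73) and H4C3 (0.49) led their classes. The values of H3C13, H3C14 and H4C15, and so their ranks, are uncertain because of shared sequence. H2AC15, H2AC25, H2BC11, H3C6, H4C9 and H4C16 did not pass at 48 h, with values between -0.15 and 0.31.

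In the CTRL line, which holds no CEBPD cDNA, 47 of 50 histone genes fell from 0 h to 48 h and 0 rose, beside 14.8% of all genes called lower and 15.2% called higher. The median log2 fold change was -0.65, and 0.01 for all genes. By class, 6 of 7 H3 genes fell (median -0.84), 13 of 13 H2A genes (-0.81), 10 of 11 H4 genes (-0.65), 14 of 15 H2B genes (-0.47) and 4 of 4 H1 genes (-0.40). All 3 CTRL 48 h libraries were below all 3 CTRL 0 h libraries for 47 genes, as they were for 25.7% of all genes tested.

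H2BC3, an H2B gene, fell furthest, from 94.6, 109.9 and 119.7 CPM at 0 h to 39.2, 38.7 and 41.9 CPM at 48 h. The log2 fold change was -1.44 ± 0.08, adjusted p = 1.3e-07, which left 36.9% of the 0 h level. H2AC4, an H2A gene, went from 72.03, 84.9 and 88.7 to 33.8, 29.2 and 33.9 CPM (-1.34 ± 0.09). H3C12, an H3 gene, went from 107, 116 and 121 to 43.5, 38.8 and 56.5 CPM (-1.31 ± 0.11). In each the groups were well apart. The other largest falls of their classes were those of H3C14 (-1.27), H3C13 (-1.17), H2AC15 (-1.04), H4C3 (-0.99), H4C12 (-0.96), H2AC7 (-0.94), H2BC11 (-0.92), H1-5 (-0.81), H2BC26 (-0.68), H1-2 (-0.44) and H1-4 (-0.36), and H4C16 was left at 49.9% of its 0 h level. H2BC6 did not pass, at 86.7, 93.3 and 85.3 CPM at 0 h and 89.4, 90.5 and 93.3 CPM at 48 h (0.04 ± 0.05). Neither did H3C6 (0.05 ± 0.11) nor H4C9 (0.14 ± 0.28). Of the 2 tested genes without a stem-loop match, H3C6 did not pass and H4C13 fell (-0.77 ± 0.05). H2BC6 and H3C6 each have a second annotated transcript, and over the tested histone genes the median was -0.63 for the 35 genes with 1 transcript and -0.68 for the 15 with more. The part of a second transcript in the values of H2BC6 and H3C6 was not tested.

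In the CEBPD line 46 of 50 genes fell from 0 h to 48 h and 0 rose (19.6% of all genes were called lower and 19.2% higher), with a median of -0.46. All 46 were also called lower in the CTRL line, where 47 of 50 were called lower, so a large overlap was given by these counts. The share of all genes called lower in both lines was not counted. H2BC3 again fell furthest, from 134, 129.7 and 158 to 69.8, 53.3 and 61.1 CPM (-1.21 ± 0.07), and H2AC4 was left at 49.9% of its 0 h level. The next were H2AC25 (-0.96 ± 0.07), H2AC15 (-0.92 ± 0.06), H4C4 (-0.88 ± 0.07), H4C3 (-0.87 ± 0.07), H2BC11 (-0.84), H4C12 (-0.82), H3C12 (-0.79), H3C13 (-0.71), H3C1 (-0.68) and H2BC7 (-0.63). The H1 genes had the smallest class median, -0.19, with H1-5 at -0.33, H1-3 at -0.22 and H1-2 at -0.16. H2BC6 (-0.13 ± 0.05), H2BC17 (-0.12 ± 0.04), H3C6 (-0.07 ± 0.11) and H4C9 (1.02 ± 0.39, adjusted p = 0.033) did not pass. Over 50 genes the 48 h changes in the lines, which share no library, had a Pearson r of 0.82 and a Spearman rho of 0.86.

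The interaction asks whether the 48 h change differed between the lines. It was called for 2 of 50 histone genes, both higher (2.8% of all genes were called higher and 2.66% lower), the linker histones H1-5 (0.47 ± 0.10, adjusted p = 0.0053) and H1-4 (0.20 ± 0.05, adjusted p = 0.0078). H1-5 went from 731, 758 and 759.9 CPM at 0 h to 384, 395 and 509 CPM at 48 h in the CTRL line. In the CEBPD line it went from 948, 925 and 964 to 817, 708 and 744 CPM. The fall was thus smaller in the CEBPD line, and CTRL 48 h replicate 3 lay above the other CTRL 48 h libraries. Both calls were lost without any 1 of the CEBPD 0 h libraries, CEBPD 48 h replicates 1 and 3 and CTRL 0 h replicates 2 and 3, and 4 genes were called without CTRL 48 h replicate 3. The interaction was positive for 44 of 50 genes and for 47.99% of all genes tested. At an unadjusted p under 0.05, 20 were on the positive and 2 on the negative side (11.3% and 11.9% of all genes), whereas the count called, 2, was near the share of all genes.

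**Figure D4:**
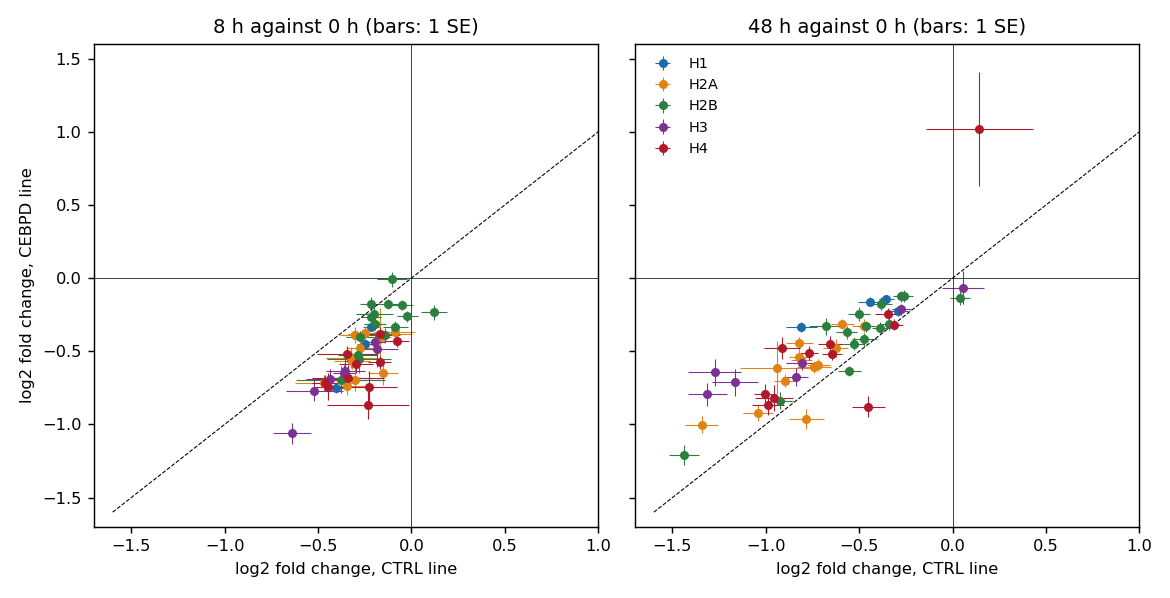
Log2 fold change from 0 h in the CTRL line (x axis) and the CEBPD line (y axis), at 8 h (left, 49 genes) and 48 h (right, 50 genes), with bars of 1 SE, a colour per histone class and a dashed line of equal change. At 8 h all genes lie below 0 in the CEBPD line, and at 48 h all but H4C9 do, the H4 gene with the wide bars.

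At 8 h in the CEBPD line 47 of 49 genes were called lower than at 0 h and 0 higher (16.2% of all genes were called lower and 14.8% higher), with a median of -0.48. H3C13, whose values are uncertain because of shared sequence, had the largest fall. It went from 35.3, 34.2 and 37.4 to 19.6, 16.1 and 15.6 CPM (-1.06 ± 0.07, adjusted p = 2.3e-11). H1-3 went from 305, 280.5 and 311 to 184, 172 and 179.9 CPM (-0.75 ± 0.04), and in both genes the groups were far apart. H4C4 was at -0.87 ± 0.09, and H3C12 (-0.77), H4C12 (-0.74), H4C15 (-0.74), H2AC12 (-0.74), H2AC4 (-0.72), H2AC11 (-0.69), H2BC3 (-0.69), H3C1 (-0.69), H2BC11 (-0.55), H2BC7 (-0.53), H1-2 (-0.45) and H1-5 (-0.40) were the other largest falls of their classes. Class medians ran from -0.27 for H2B and -0.43 for H1 through -0.48 for H2A to -0.63 for H4 and -0.65 for H3 genes. H2BC26 overlapped between the times, at 36.8, 34.4 and 38.1 CPM at 0 h and 36.6, 37.1 and 35.6 CPM at 8 h (-0.01 ± 0.05), and H2AC7 (-0.38 ± 0.17) did not pass either. Without CEBPD 8 h replicate 3, 46 genes were called.

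In the CTRL line 5 of 50 genes were called lower at 8 h and 0 higher (0.767% of all genes were called lower and 0.879% higher). They were H1-3 (-0.40 ± 0.05), H3C13 (-0.64 ± 0.10), H3C10 (-0.36 ± 0.06), H4C15 (-0.45 ± 0.07) and H4C16 (-0.46 ± 0.07). H1-3 was at 178, 189 and 184 CPM at 0 h and 134, 131 and 144 CPM at 8 h, without overlap. H2BC3 was at 59.9, 58.99 and 126 CPM at 8 h, with replicate 3 above all CTRL 0 h libraries. Without CTRL 8 h replicate 3, 25 genes were called lower, without CTRL 8 h replicate 1 the count was 9, and without CTRL 8 h replicate 2 or any 1 of the CTRL 0 h libraries it was 0. One model of all 24 libraries called 16, and DESeq2 8. The log2 fold change was negative for 49 of 50 genes (47.2% of all genes tested), H2BC8 (0.12 ± 0.07) being the exception, with a median of -0.24. The interaction at 8 h was called for 0 of 50 genes in edgeR (0.906% of all genes were called higher and 0.783% lower) and for 1 in DESeq2. It was negative for 47 genes (51.2% of all genes tested), of which 16 had an unadjusted p under 0.05 (11.5% of all genes), and the smallest adjusted p was that of H1-3 (-0.32 ± 0.07, adjusted p = 0.013). The interaction count was 2 without CTRL 8 h replicate 3, 4 without CTRL 8 h replicate 1 and 1 without CEBPD 0 h replicate 2.

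At 24 h the levels were near those at 0 h in both lines. In the CTRL line 1 gene was called higher and 1 lower of 50, counts near the shares of all genes (2.84% and 3.29%), with a median of -0.04. H2BC6 was the higher one, at 86.7, 93.3 and 85.3 CPM at 0 h and 109, 106 and 106 CPM at 24 h (0.28 ± 0.04, adjusted p = 5.0e-05), and H4C16 the lower one (-0.17 ± 0.04). The count of both directions was 4 without CTRL 0 h replicate 1 and 1 without CTRL 0 h replicate 3 or any 1 of the CTRL 24 h libraries. In the CEBPD line 5 of 51 were called higher and 0 lower (7.36% and 8.12% of all genes), a share of the histone genes near that of all genes. They were H2BC26 (0.25 ± 0.06), H2AC21 (0.20 ± 0.05), H2BC17 (0.19 ± 0.04), H2BC14 (0.18 ± 0.04) and, named after its value was seen, H2BC12 (0.18 ± 0.04). Without CEBPD 24 h replicate 2 the direction turned, with 1 higher and 4 lower, and without CEBPD 24 h replicate 1 the counts were 7 higher and 1 lower. Without CEBPD 0 h replicate 2 the count was 1, and in one model of all 24 libraries 2. The interaction at 24 h was called for 1 of 51 genes, in the higher direction (2.88% of all genes were called higher and 2.95% lower). It was H2BC26 (0.40 ± 0.10, adjusted p = 0.0082), which was at 17.6, 16.6 and 16.7 CPM in CTRL 24 h and 39.6, 46.7 and 43.2 CPM in CEBPD 24 h libraries. The lines were far apart at 0 h as well (0.95 ± 0.07), whereas the interaction compares the changes from 0 h. The call was lost without any 1 of CEBPD 0 h replicates 1 and 2, CEBPD 24 h replicates 2 and 3, CTRL 0 h replicates 2 and 3 and the CTRL 24 h libraries.

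The genes with the highest levels per length of their classes also fell in the CTRL line at 48 h. H4C2, an H4 gene, was at 252, 259.6 and 279 CPM in CTRL 0 h and 167, 151 and 186 CPM in CTRL 48 h libraries (-0.65 ± 0.07). H2BC14, the leading H2B gene, was at 216, 217 and 204 CPM at 0 h and 177, 174 and 177 CPM at 48 h (-0.28 ± 0.04). H3C11, the leading H3 gene, was at 167, 164 and 164 CPM at 0 h and 141, 128 and 141 CPM at 48 h (-0.28 ± 0.05). In all of these the 48 h libraries lay below the 0 h libraries. H2AC11, the leading H2A gene, was at 172, 178 and 194 CPM at 0 h and 94.8, 94.8 and 103 CPM at 48 h (-0.90 ± 0.06). H4C5, another H4 gene, was at 230.5, 237 and 251 CPM at 0 h and 189.7, 196 and 195 CPM at 48 h (-0.31 ± 0.04). In the CEBPD line the changes from 0 h to 48 h were -0.45 ± 0.06 for H4C2, -0.12 ± 0.04 for H2BC14, -0.21 ± 0.04 for H3C11, -0.70 ± 0.05 for H2AC11 and -0.32 ± 0.04 for H4C5. All were called.

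Genes outside the 6p22 cluster took part as well. On 1q21 all 7 tested genes fell from 0 h to 48 h in both lines, with medians of -0.82 in the CTRL and -0.48 in the CEBPD line. All 7 were higher in the CEBPD line at 48 h (median 0.65). Among these, H2AC21, H2BC18, H3C13, H3C14 and H4C15 have uncertain values, from shared sequence or a gene on the other strand. On 6p22, 37 of 40 fell in the CTRL line (median -0.58) and 36 in the CEBPD line (-0.45), and 36 were higher in the CEBPD line at 48 h (0.47). Of all genes, 14.8% were called lower at 48 h than at 0 h in the CTRL line and 19.6% in the CEBPD line. Between the lines at 48 h, 17.7% of all genes were called higher. The 1q42 genes H2AC25 and H2BC26 fell in both lines at 48 h. H4C16, the tested gene on chromosome 12, was at 94.7, 90.4 and 97.4 CPM in CTRL 0 h, 65.1, 63.3 and 72.7 at 8 h, 85.6, 81.1 and 83.4 at 24 h and 49.3, 44.6 and 47.4 at 48 h, and was called lower than at 0 h at each of these times. The difference between clusters was not tested.

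Divergent pairs of an H2A and an H2B gene, whose starts lie within 400 bases of each other, allow a comparison of both classes at one place. Both genes were tested in 10 pairs. From 0 h to 48 h the H2A gene had the lower log2 fold change in 9 pairs in the CTRL line, with medians of -0.82 for H2A and -0.50 for H2B genes, and in 7 pairs in the CEBPD line. H2AC15 (-1.04) and H2BC15 (-0.34), which start 170 bases apart, differed most in the CTRL line, while H2AC11 (-0.90) and H2BC11 (-0.92) lay close together. At 8 h in the CEBPD line the H2A gene was the lower one in 9 pairs, with H2AC25 (-0.65 ± 0.08) and H2BC26 (-0.01 ± 0.05) furthest apart. Between the lines at 0 h the H2A gene was the lower one in 5 of the 10 pairs. H2BC15 is annotated with 4265 bases of exon and H2AC15 with 496, and H2BC26 with 5002 and H2AC25 with 1850. The part of exon length in the differences within pairs was not tested. The pairs share libraries, so no test was made over them.

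The counts of the lists that follow are to be read against the shares of all genes called in the same comparison. From 0 h to 48 h these were 15.2% higher and 14.8% lower in the CTRL line and 19.2% and 19.6% in the CEBPD line. From 0 h to 8 h in the CEBPD line they were 14.8% and 16.2%. Between the lines they were 20.1% and 24% at 0 h and 21.7% and 25.3% at 24 h. Among 24 genes that transcribe and process histone mRNA, of which 23 were tested, 1 rose and 8 fell from 0 h to 48 h in the CTRL line and 2 rose and 9 fell in the CEBPD line. SLBP, the stem-loop binding protein, fell in both (-0.41 ± 0.06 in CTRL and -0.47 ± 0.04 in CEBPD cells), as did CDC25A, a phosphatase that activates CDK2 (-0.85 ± 0.06 and -0.62 ± 0.05). TUT4, a uridylyltransferase, rose in both (0.45 ± 0.06 and 0.51 ± 0.04). NPAT did not pass at 48 h in either line (0.01 ± 0.07 and -0.11 ± 0.04). At 8 h in the CEBPD line 3 rose and 4 fell, shares near those of all genes (14.8% higher and 16.2% lower), and SLBP did not pass (-0.10 ± 0.03). At 0 h the CEBPD line had 6 higher and 7 lower than CTRL, beside 20.1% and 24% of all genes, among them CCNE1 (0.58 ± 0.06), a cyclin that drives CDK2, and TUT7 (-0.58 ± 0.04), a uridylyltransferase.

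Among 30 DNA replication genes 1 rose and 22 fell at 48 h in CTRL cells, 0 rose and 26 fell at 48 h in CEBPD cells and 1 rose and 22 fell at 8 h in CEBPD cells. At 8 h E2F1, a G1/S transcription factor, was among those that fell (-0.55 ± 0.05), and RRM2, a ribonucleotide reductase subunit, was the one that rose (0.15 ± 0.02). At 0 h the CEBPD line had 16 higher and 6 lower of these genes (20.1% and 24% of all genes), with a median of 0.16. The lower count was near the share of all genes. E2F2 (1.18 ± 0.05), a transcription factor, was furthest on the higher side and GINS4 (-0.85 ± 0.03), a replicative helicase subunit, on the lower side. Among 20 mitosis genes 0 rose and 15 fell at 48 h in CTRL, 1 rose and 19 fell at 48 h in CEBPD and 6 rose and 5 fell at 8 h in CEBPD cells. At 0 h the CEBPD line had 1 higher and 9 lower of the mitosis genes (median -0.10), the other way from the DNA replication genes. The counts at 24 h were 1 higher and 14 lower (21.7% and 25.3% of all genes).

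Among 12 replication-independent histone genes, which are expressed outside S phase as well, 2 rose and 7 fell at 48 h in CTRL and 2 rose and 8 fell in CEBPD cells. MACROH2A2, a macroH2A variant, was among those that rose (1.22 ± 0.09 in CTRL and 1.23 ± 0.23 in CEBPD cells), and H2AX, a variant used in DNA damage signalling, fell (-0.73 ± 0.06 and -0.58 ± 0.04). At 0 h the CEBPD line had 3 higher and 6 lower of the 12 (20.1% and 24% of all genes), with MACROH2A2 at -2.74 ± 0.17. The higher count was near the share of all genes. Among 22 histone chaperones and partners 2 rose and 7 fell at 48 h in CTRL and 2 rose and 13 fell in CEBPD cells, with TONSL, which binds newly made histones, at -0.64 ± 0.06 and -0.75 ± 0.05. Of 14 other RNAs without a poly(A) tail 1 to 4 were tested in a comparison, with 2 for CTRL 48 h and 1 each for CEBPD 8 h and 48 h. RN7SL2, a signal recognition particle RNA and the one of them that fell at 48 h in both lines, was at 16.2, 16.6 and 21.2 CPM in CTRL 0 h and 11.8, 7.87 and 9.59 CPM in CTRL 48 h libraries, without overlap, and fell at 8 h in the CEBPD line too (-0.93 ± 0.09). From 0 h to 24 h in the CEBPD line, 2 of the 3 such RNAs tested were called higher and 0 lower (7.36% and 8.12% of all genes). The part of library preparation in these values was not tested.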

How the data were processed

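Total RNA was depleted of ribosomal RNA and sequenced as 50-base reads. The authors trimmed the reads with Trimmomatic, mapped them with HISAT2 to GRCh38 and summarised them with HTSeq, and deposited 1 table of raw counts per Ensembl gene for the 24 libraries. Strand and multiple-mapping settings are not given in the sources used here. Of 60675 identifiers, 56558 were named from GENCODE v44. The genes of interest and the gene lists were chosen with earlier results of these data known. The values of 1 gene of these lists are not reported here.

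Each comparison was fitted over all genes of its own libraries (4 groups for an interaction) with edgeR 4.0.16 in R 4.3.3, using filterByExpr, TMM factors and the quasi-likelihood test, with Benjamini-Hochberg adjustment over all genes and a threshold of 0.01. The study's methods describe wells seeded in triplicate, so p-values measure the spread between such wells, which may be technical. Genes were named as the 3 largest called changes per direction and class in each comparison and the 3 highest levels per kb of each class. No 2 libraries of a group agreed within sampling noise. The main fits did not pair same-numbered libraries. Every pair's correlation was over 0.1 only for CTRL 24 h against 0 h (correlations of 0.14 to 0.19 in 3 pairs). There the replicate block gave 2 calls, as without it. The scripts were tested on simulated data. Alternatives were DESeq2 1.42.0, library totals in place of TMM factors, no filter, at least 10 counts in every library, one model of all 24 libraries, the replicate block, a threshold of 0.05 and leaving out each library. Counting intervals cover counting error only.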

Additional observations from a re-analysis of the deposited data

Results flagged for a closer look

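For 3 histone genes the change with time differed between the lines by edgeR's interaction test, 1 of 51 tested at 24 h and 2 of 50 at 48 h. These counts were near the shares of all genes called higher, 2.88% at 24 h and 2.8% at 48 h. H2BC26, an H2B gene on 1q42, had an interaction of 0.40 ± 0.10, adjusted p = 0.0082 at 24 h, with changes of 0.25 ± 0.06 in the CEBPD and -0.14 ± 0.07 in the CTRL line. The linker histone H1-5 had an interaction of 0.47 ± 0.10, adjusted p = 0.0053 at 48 h, with changes of -0.33 ± 0.04 in the CEBPD and -0.81 ± 0.08 in the CTRL line. H1-4, also a linker histone, had one of 0.20 ± 0.05, adjusted p = 0.0078 at 48 h, with changes of -0.15 ± 0.03 and -0.36 ± 0.04. H2BC26 lost the call with library totals, one model of all libraries or the replicate block, H1-5 with DESeq2, and H1-4 with library totals or the block, each keeping its sign. Each also lost it when single libraries were left out, H2BC26 without any 1 of 9 libraries, H1-5 without any 1 of 7 and H1-4 without any 1 of 10. Groups of 3 libraries were not tested for outlying values.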

How the results depend on the processing

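Counts of called histone genes moved by over 1.5 times as follows, and the cause was not tested beyond what a setting's own construction gives. One model of all 24 libraries gave 23 for the lines at 0 h, 16 for CTRL 8 h, 0 for CTRL 24 h, 2 for CEBPD 24 h, and 1 and 0 for the interactions at 8 and 24 h. DESeq2 gave 8 for CTRL 8 h, 1 for the interaction at 8 h and 4 for that at 48 h. Library totals gave 1 for CTRL 24 h and 4, 0 and 1 for the interactions at 8, 24 and 48 h. Without the filter the counts were 9 for CEBPD 24 h and 2, 3 and 10 for the interactions, and with at least 10 counts in every library 1 for that at 8 h. At a threshold of 0.05 they were 16 for the lines at 8 h (12 higher and 4 lower) and 9 for CTRL 8 h. At that threshold CTRL 24 h gave 4 (1 higher and 3 lower), CEBPD 24 h 9 and the interactions 4, 5 and 9. With replicate 3 of both lines at 8 h left out, chosen after seeing the data, the lines at 8 h gave 24 and the interaction 0. The share of counts in CTRL 0 h libraries was 0.655% from CPM with TMM factors.

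With the replicate block the counts were 0 for CTRL 8 h, 3 for CEBPD 24 h and 0 for the interaction at 24 h, and no other count moved by over 1.5 times. By their labels the libraries compared share only a number, and correlations of same-numbered libraries ran down to -0.24. As a hint from the data alone, all 6 libraries correlated best with their own number for CEBPD vs CTRL at 8 h, CTRL 24 h vs 0 h and CEBPD 48 h vs 0 h.

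Leaving out 1 library gave 32 to 42 calls for the lines at 0 h, 7 to 19 at 8 h, 38 to 45 at 24 h and 37 to 45 at 48 h. It gave 0 to 25 for CTRL 8 h (the highest without CTRL 8 h replicate 3 and the lowest without CTRL 0 h replicate 1), 1 to 4 for CTRL 24 h, 46 to 47 for CTRL 48 h, 45 to 47 for CEBPD 8 h, 1 to 8 for CEBPD 24 h (lowest without CEBPD 0 h replicate 2 and highest without CEBPD 24 h replicate 1) and 43 to 47 for CEBPD 48 h. For the interactions it gave 0 to 4 at 8 h, 0 to 1 at 24 h and 0 to 4 at 48 h. None of the 111 log2 fold changes of named histone genes changed sign under the alternatives run for it. Rarely counted genes such as H4C9 limit what these depths can show.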
